A study of Homo sapiens with 4 samples.

Results

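The genes described here encode the cell-surface and secreted cues that steer migrating cells and growing axons: ephrins and their Eph receptors, semaphorins with their plexin and neuropilin receptors, SLIT proteins with their ROBO receptors, and netrins with their UNC5 receptors. They were chosen by symbol (EPHA, EPHB, EFNA, EFNB, SEMA, PLXN, ROBO, SLIT, NTN and UNC5 genes with NRP1 and NRP2; a further ephrin-B gene was not included). Of 20046 named genes on the array 66 were members, and 38 of them were detected on at least 2 of 4 arrays and could be compared, among 10377 such genes in all. RNA came from RUES2 cells, a widely used line of human embryonic stem cells, taken 5 days into differentiation toward heart muscle, a point labelled as the cardiovascular progenitor stage. The cells of every group had been transduced with a short hairpin RNA (shRNA). The TMEM88 shRNA group held 1 array with hairpin 691 and 1 with hairpin 94, both against TMEM88, which encodes a membrane protein known as a regulator of Wnt signals. The control shRNA group held 2 arrays, called control 1 and control 2. Separate cultures are not stated in the labels. The p-values therefore rest on the spread among these 4 arrays alone, possibly technical, and the spread of the TMEM88 shRNA group contains the difference between its hairpins.

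Ephrins are membrane-bound ligands, the A class held by a lipid anchor and the B class crossing the membrane, and their binding to Eph receptor kinases often makes cells pull apart. Semaphorins signal through plexins, with neuropilins as co-receptors for most secreted class 3 members, while SLIT proteins repel cells through ROBO receptors and netrins attract or repel them depending on the receptor. In the embryo the same families sort mesoderm cells at boundaries, pattern vessels and take part in septation of the outflow tract and in valve formation.

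The targeted gene, TMEM88, was below both controls with either hairpin, and by much less with hairpin 94. Its log2 normalised intensity was 7.88 with shRNA 691 and 10.34 with shRNA 94, against 11.04 and 11.49 in the controls, which put it at 9.62% and 52.9% of the control mean (limma adjusted p = 0.0146 with shRNA 691, 0.591 with shRNA 94 and 0.187 for both together). Between 15300 and 16516 of 47322 probes were detected on each array. Markers of the labelled stage were present in part. Of 10 cardiac progenitor genes 9 were compared, and TBX5 was undetected on every array. HAND2, MEF2C and PDGFRA fell. MEF2C was undetected with both TMEM88 hairpins and entered the comparison only through the controls, so the detection filter fixed its direction. The other 6 compared did not pass. Their log2 differences were 1.2 for KDR, 0.97 for NKX2-5, 0.71 for HAND1, 0.03 for ISL1, -1.17 for GATA4 and -1.29 for GATA6. The summed normalised intensity of the 10 was 9196 and 9893 in the TMEM88 shRNA arrays, against 8152 and 12260 in the controls. Markers of other cell types moved with the groups. The summed normalised intensity of 9 primitive streak genes was 5573 and 4113 in the TMEM88 shRNA arrays, against 678.1 and 818.1 in the controls, with 2 of 4 compared genes called higher and TBXT, MESP2, TBX6 and MSGN1 undetected throughout. For 10 neural ectoderm and crest genes the sums were 3849 and 3479, against 1284 and 1319, with 3 of 5 compared genes called higher. PAX6, SOX1, ZIC1, PAX3 and FOXD3 were undetected throughout. Of the 3 called, SOX10 was detected only with the TMEM88 hairpins, so the detection filter fixed its direction. TFAP2A, which was not called, had a difference of -1.05. For 9 endoderm genes the sums were 3963 and 3702, against 1759 and 1040, with 1 of 8 called higher and AFP undetected. Of the compared genes, CER1, TTR and the primitive streak gene GSC were also detected only with the TMEM88 hairpins, and none was called. For 10 endothelial genes the sums were 3564 and 2521, against 1244 and 924, with 0 of 4 called in limma. PECAM1, CDH5, TIE1, ERG, FLI1 and ESAM were undetected throughout. SOX17 counts in both the endoderm and the endothelial sums, so these are not separate. For 7 pluripotency genes on the array the sums were 16650 and 11880, against 10520 and 11360, with none of 6 called and NANOG undetected. For 7 epithelial genes they were 19890 and 21100, against 16680 and 15290, with none of 6 called. The part of these cells in the values below was not tested, and fewer cells of a type cannot be told apart from less RNA per cell in such bulk samples.

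Detection of guidance genes differed between the arrays. Of the 66 members, 41 were detected with shRNA 691 and 43 with shRNA 94, against 34 in control 1 and 33 in control 2 (a detection p-value under 0.01 for any probe of the gene). Over all named genes the shares detected were 51.8% and 50.8%, against 49.6% and 49.0%. By their best probe, 28 members were detected on 4 arrays, 6 on 3 and 4 on 2, just inside the rule, while 12 were detected on a single array, just outside it, and 16 on none. The 16 members undetected by this rule, which does not show that they were unexpressed, included receptor and ligand genes. The receptor genes were EPHA3, EPHA5, EPHA6, EPHA7, EPHB1, PLXNA4, PLXNB3, PLXNC1, ROBO2 and ROBO4. The ligand genes were EFNA2, EFNA3, EFNA5, SEMA3D, SEMA7A and SLIT1. The highest signal of these 16 on any array was 146.8, for SEMA7A. Of the 12 detected once, SEMA3C and SEMA5A were detected on a control array and the other 10 on a TMEM88 shRNA array.

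Among the 38 compared genes, 1 rose and 1 fell with the TMEM88 hairpins: the semaphorin gene SEMA5B rose and the Eph receptor gene EPHA4 fell. Over all genes compared, 1.98% changed (0.954% higher and 1.02% lower) in limma at a Benjamini-Hochberg adjusted p under 0.05. At an adjusted p under 0.1 there were 5 of the 38, against 4.32% of all genes, and at an unadjusted p under 0.05 there were 15 of the 38, against 18.3% of all genes. The median log2 difference, TMEM88 shRNA minus control, was 0.28 over these genes and 0.00 over all genes, and the median size regardless of sign was 0.54, against 0.30 over all. For 14 genes both hairpin arrays lay above both controls and for 9 they lay below, where 25.2% and 24.9% of all genes did so (50.2% in either direction). With PLXNA2 read by its other detected probe, which goes the opposite way, these counts were 15 and 8. NTN3 and NTN4 entered the comparison only through the TMEM88 shRNA arrays and NRP1, by its main probe, only through the controls, so they had to differ and these counts are a description. These 3 genes are also among the 15 with an unadjusted p under 0.05 in limma and enter both medians, so those are a description too. Without these 3 genes the counts above and below both controls were 12 and 8 of 35, and the median difference was 0.27.

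**Figure D1:**
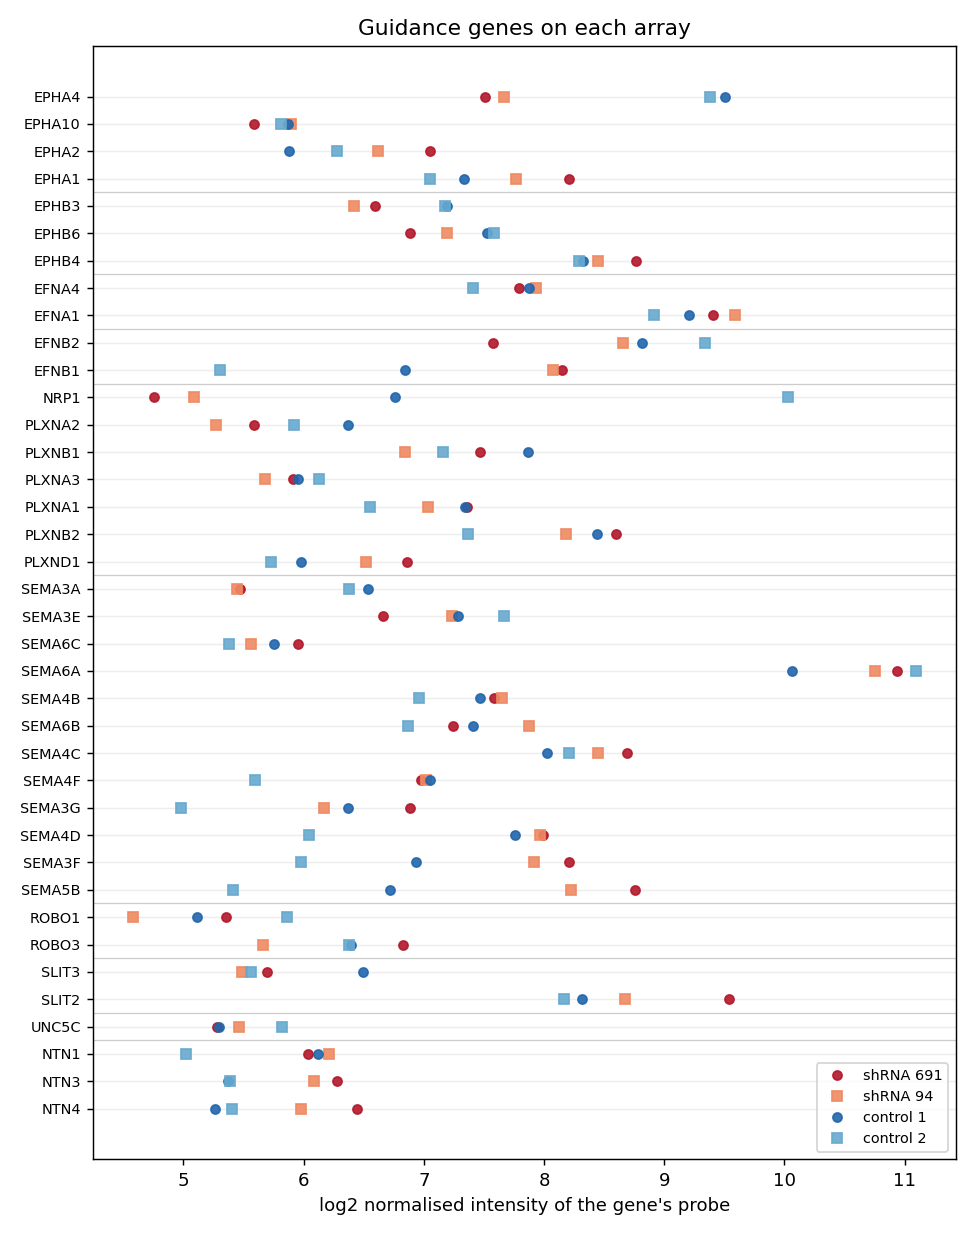
Log2 normalised intensity (horizontal axis) of the 38 compared guidance genes, 1 row per gene, in blocks of EPHA, EPHB, EFNA, EFNB, plexin and neuropilin, SEMA, ROBO, SLIT, UNC5 and NTN genes. Points are single arrays: red and orange for shRNA 691 and 94, dark and light blue for controls 1 and 2. EPHA4 lies at 7.51 and 7.66 with the hairpins and at 9.51 and 9.38 in the controls, while SEMA5B lies at 8.75 and 8.23 against 6.72 and 5.41.

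The controls were further apart for these genes than for most. Control 1 and control 2 differed by more than 1 on the log2 scale for 9 of the 38 genes (23.7%), against 7.01% of all genes, and control 1 was the higher of the pair for 26. The TMEM88 hairpins differed by more than 1 for 2 of the 38 (5.26%), against 1.52% of all genes. For 15 of the 38 the gap between the controls was larger than the difference between the groups. Without control 1, 12 of the 38 were called (background 14.0%), and without control 2, 6 were (background 5.28%). Such a fit takes its spread from the TMEM88 shRNA pair alone, which assumes that a lone control varies like it. Both counts include NRP1, which entered the comparison only through the controls.

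**Figure D2:**
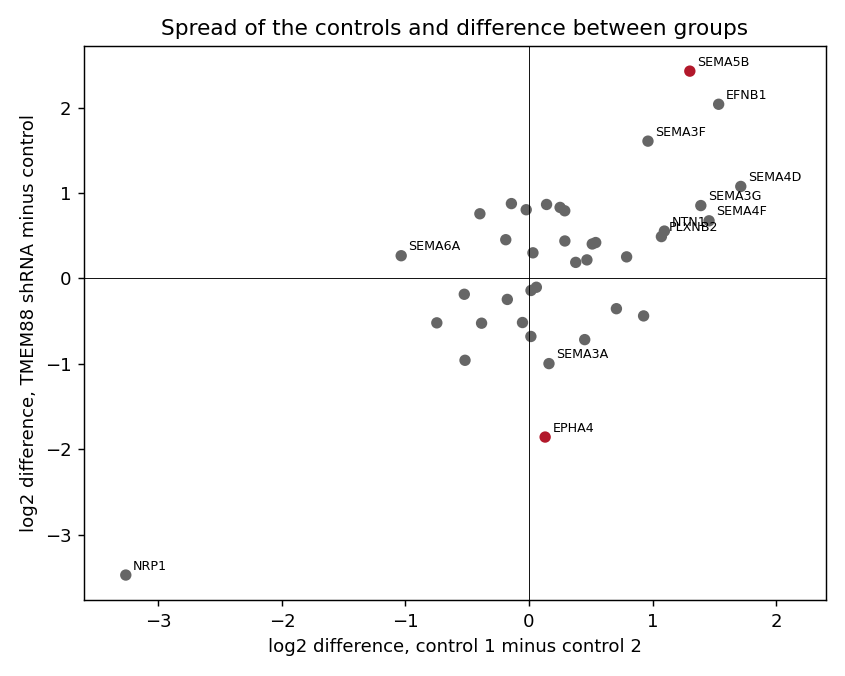
Log2 difference between control 1 and control 2 (horizontal axis) and between TMEM88 shRNA and control (vertical axis) for each of 38 guidance genes. Each point is a gene, red where the adjusted p was under 0.05, and names mark genes with a control gap over 1 or an adjusted p under 0.1. EPHA4 had a control gap of 0.13 and SEMA5B of 1.30, while NRP1 had -3.26.

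The first group is the Eph receptors. EPHA4, a receptor kinase that binds both ephrin classes and marks segment boundaries in the paraxial mesoderm and hindbrain of vertebrate embryos, had log2 intensities of 7.51 with shRNA 691 and 7.66 with shRNA 94, against 9.51 and 9.38 in the controls. Its raw signals were 304.2 and 293, against 860.7 and 772.2, so both hairpin arrays lay well below both controls and each pair was tight. EPHA4 fell by 1.86 ± 0.23 on the log2 scale (SE, n = 2 per group, limma adjusted p = 0.0155), to 27.6% of the control level. Its difference was -1.79 without control 1 and -1.92 without control 2. The call held with each other background correction and normalisation tried. It was lost with no detection filter (limma adjusted p = 0.0546) and against a single hairpin (limma adjusted p = 0.0833 with shRNA 691 and 0.125 with shRNA 94).

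The annotated start sites of the called genes are shown, because promoter letters are the regulatory sequence at hand for genes that changed. RefSeq (GRCh38.p14) lists 2 starts for EPHA4, on chromosome 2, and 3 for SEMA5B, on chromosome 3. None of these starts was tied to the transcript that the array probe reads. Each window is the 250 bases before the start, 5′ to 3′ along the gene. Capitals mark matches on either strand to the GC box GGGCGG or the CCAAT box CCAAT.

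EPHA4, chr2:221574203-221574452, minus strand: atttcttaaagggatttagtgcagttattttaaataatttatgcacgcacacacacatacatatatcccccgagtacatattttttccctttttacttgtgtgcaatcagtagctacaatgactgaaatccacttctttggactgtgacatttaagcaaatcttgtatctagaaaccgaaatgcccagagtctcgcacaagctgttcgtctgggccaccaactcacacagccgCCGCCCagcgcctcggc
EPHA4, chr2:221572305-221572554, minus strand: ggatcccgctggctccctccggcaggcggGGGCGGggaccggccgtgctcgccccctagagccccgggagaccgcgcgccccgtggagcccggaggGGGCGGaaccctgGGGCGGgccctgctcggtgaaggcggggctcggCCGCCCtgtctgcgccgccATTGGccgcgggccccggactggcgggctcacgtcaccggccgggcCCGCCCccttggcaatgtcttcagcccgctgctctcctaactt
SEMA5B, chr3:123028606-123028855, minus strand: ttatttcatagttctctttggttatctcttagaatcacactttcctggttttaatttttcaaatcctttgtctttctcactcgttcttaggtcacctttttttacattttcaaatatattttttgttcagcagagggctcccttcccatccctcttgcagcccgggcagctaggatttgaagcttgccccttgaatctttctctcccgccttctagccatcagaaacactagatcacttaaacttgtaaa
SEMA5B, chr3:123027764-123028013, minus strand: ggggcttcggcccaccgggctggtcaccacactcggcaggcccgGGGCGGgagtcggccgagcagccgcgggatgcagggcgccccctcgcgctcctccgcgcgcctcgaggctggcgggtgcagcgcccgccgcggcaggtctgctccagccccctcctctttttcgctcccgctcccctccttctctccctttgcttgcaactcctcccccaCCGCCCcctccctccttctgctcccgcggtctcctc
SEMA5B, chr3:122993239-122993488, minus strand: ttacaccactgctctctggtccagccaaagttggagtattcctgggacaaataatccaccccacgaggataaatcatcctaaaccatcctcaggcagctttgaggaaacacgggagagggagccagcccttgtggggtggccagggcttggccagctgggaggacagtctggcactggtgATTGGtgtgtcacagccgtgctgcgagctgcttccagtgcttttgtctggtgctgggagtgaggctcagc

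The inner EPHA4 window held 5 GC boxes and 1 CCAAT box and was 78.0% G and C, while the outer one held 1 GC box and was 43.2% G and C. Of the SEMA5B windows, the middle one held 2 GC boxes at 74.8% G and C, the innermost held 1 CCAAT box and the outermost neither. Other letters searched on both strands were TATAAA and the T-cell factor (TCF) core CTTTGAA or CTTTGAT, and these windows held none of them. Of 35116 such windows of all genes, 42.6% held GGGCGG, 32.0% CCAAT, 10.7% TATAAA, 3.8% CTTTGAA and 2.3% CTTTGAT. Of the 44 windows listed for 31 of the 38 compared guidance genes, 72.7%, 43.2%, 4.5%, 2.3% and 2.3% did. The windows of all genes cover 27305 genes with no detection filter, while the compared guidance genes were detected here. The sets are thus unlike, and these shares show no trait of guidance genes. A match is a run of letters and not a measured binding site, and no match says only that these letters are not in this window.

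The remaining Eph receptor genes had smaller differences, none of which passed. EPHA1, an epithelial Eph receptor, had 8.20 and 7.77 with the hairpins, against 7.34 and 7.05 in the controls. EPHA2, a receptor of early epithelia and of the primitive streak in the mouse, had 7.05 and 6.62, against 5.88 and 6.28. Both stood higher on both hairpin arrays than on either control, with log2 differences of 0.79 ± 0.26 for EPHA1 and 0.76 ± 0.27 for EPHA2 (SE, n = 2 per group; limma adjusted p = 0.189 and 0.219). EPHA10, which lacks a working kinase domain, had 5.58 and 5.90, against 5.87 and 5.81, with overlapping groups. EPHB3 had 6.59 and 6.42, against 7.19 and 7.18, and EPHB6, another kinase-inactive receptor, had 6.89 and 7.19, against 7.53 and 7.58. These B-class receptors were lower on both hairpin arrays, with EPHB3 at -0.68 ± 0.23 (limma adjusted p = 0.189). EPHB4, the venous receptor for ephrin-B2, had 8.77 and 8.45, against 8.32 and 8.29, a difference of 0.30 ± 0.24 (limma adjusted p = 0.559).

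Among the ephrins, the B-class genes differed in opposite directions. EFNB1, a transmembrane ephrin whose loss causes craniofrontonasal syndrome, had 8.15 and 8.07 with the hairpins, against 6.84 and 5.31 in the controls. The hairpin arrays lay close together and above both controls, and control 2 did not detect the gene. Its difference was 2.04 ± 0.47 (SE, n = 2 per group) and missed the threshold (limma adjusted p = 0.0926). The difference was 2.81 without control 1 and 1.27 without control 2. EFNB2, the arterial partner of EPHB4, had 7.58 and 8.66, against 8.82 and 9.34, so its hairpin arrays were over 1 apart and both lay below the controls. Its difference was -0.96 ± 0.39 (limma adjusted p = 0.261), with -1.50 for shRNA 691 and -0.42 for shRNA 94. The A-class ligand gene EFNA1 had 9.40 and 9.59, against 9.20 and 8.91, and EFNA4 had 7.79 and 7.93, against 7.88 and 7.41. The differences of these A-class genes were 0.44 ± 0.24 and 0.22 ± 0.26 and did not pass (limma adjusted p = 0.392 and 0.706).

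Of 20 semaphorin genes on the array 12 were compared, of which 10 had a positive and 2 a negative difference. SEMA5B, a transmembrane semaphorin with thrombospondin repeats that acts through class A plexins, had log2 intensities of 8.75 with shRNA 691 and 8.23 with shRNA 94, against 6.72 and 5.41 in the controls. Its raw signals were 559.8 and 382.6, against 214.1 and 148.9, and control 2 did not detect it. The groups did not overlap, although the controls were 1.30 apart. SEMA5B rose by 2.43 ± 0.44 on the log2 scale (SE, n = 2 per group, limma adjusted p = 0.0491), close to the threshold. The difference was 3.08 without control 1 and 1.78 without control 2. The call with all 4 arrays depended on the settings. It was lost against a single hairpin (limma adjusted p = 0.0833 with shRNA 691 and 0.204 with shRNA 94), with median scaling in place of quantile normalisation (limma adjusted p = 0.063), with robust variance estimation (limma adjusted p = 0.051) and with no detection filter (limma adjusted p = 0.183), and the difference was 1.31 with no background correction and 1.42 in the deposited matrix.

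The secreted class 3 semaphorins, which bind neuropilins or plexins directly, were split. SEMA3F had 8.21 and 7.92 with the hairpins, against 6.94 and 5.97 in the controls, a difference of 1.61 ± 0.35 (SE, n = 2 per group; limma adjusted p = 0.0804). The difference was 2.09 without control 1 and 1.13 without control 2. SEMA3A, the classic repellent ligand of NRP1, had 5.47 and 5.45, against 6.54 and 6.37. Both pairs were tight, with a difference of -0.997 ± 0.23 that missed the threshold (limma adjusted p = 0.0886). The difference was -0.92 without control 1 and -1.08 without control 2. SEMA3E, the ligand of PLXND1, had 6.66 and 7.23, against 7.28 and 7.66, just below the controls. SEMA3G had 6.89 and 6.17, against 6.37 and 4.98, with overlapping groups.

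**Figure D3:**
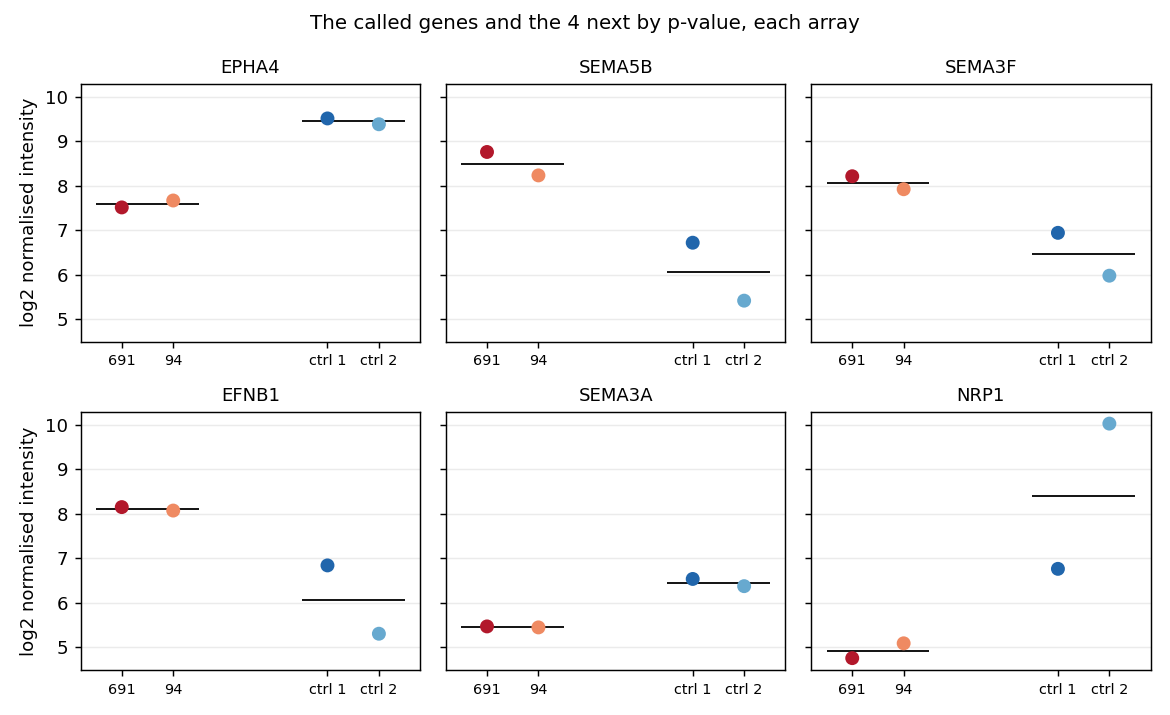
Log2 normalised intensity on each array for EPHA4, SEMA5B, SEMA3F, EFNB1, SEMA3A and NRP1, the 6 compared guidance genes with the smallest p-values. Points are arrays, with hairpins 691 and 94 left and controls 1 and 2 right, and bars are group means. In NRP1, control 2 stands at 10.03 and control 1 at 6.76, above 4.76 and 5.09 with the hairpins.

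For the class 4 and class 6 semaphorins no difference passed. SEMA4D, which acts through B-class plexins, had 7.99 and 7.97 with the hairpins, against 7.76 and 6.05 in the controls, so control 1 lay beside the hairpin arrays and control 2 far below. Its difference was 1.08 ± 0.51 (SE, n = 2 per group, limma adjusted p = 0.324). Without control 1 it was 1.93, and without control 2 it was 0.22. SEMA4F had the same layout by its brighter probe, with 6.98 and 7.02, against 7.05 and 5.60. Its other detected probe did not show this layout, with 5.96 and 5.38, against 5.49 and 5.56, and a difference of 0.15. SEMA4C had 8.69 and 8.45, against 8.02 and 8.21, and SEMA4B had 7.59 and 7.65, against 7.47 and 6.96, both higher on the hairpin arrays by less than 0.5. SEMA6A, a transmembrane semaphorin that binds class A plexins, had 10.94 and 10.75, against 10.06 and 11.10, within the range of the controls (a difference of 0.27 ± 0.36, limma adjusted p = 0.747). SEMA6B had 7.24 and 7.87, against 7.41 and 6.87, and SEMA6C had 5.95 and 5.56, against 5.76 and 5.38, also overlapping.

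Of the semaphorin receptors, NRP1 had the largest difference of any compared guidance gene and was not called. NRP1, a co-receptor for SEMA3A and for vascular endothelial growth factor, had log2 intensities of 4.76 with shRNA 691 and 5.09 with shRNA 94, against 6.76 in control 1 and 10.03 in control 2. The difference of control 1 minus control 2 was -3.26, and neither hairpin array detected this probe. By this probe, as processed, NRP1 was at least 8.27-fold below the mean of the controls with the hairpins (limma adjusted p = 0.123). For this bound each hairpin array's value was raised, where it was lower, to that array's smallest detected intensity. The mean joins controls that lay far apart, and the log2 difference was -1.78 with no background correction, so the bound is not one for the gene. A second NRP1 probe was detected on 4 arrays, with 5.91 and 5.58, against 6.82 and 7.90, and gave a smaller difference of -1.61 ± 0.37 (limma adjusted p = 0.0837 over all detected probes). On both probes the hairpin arrays lay below both controls. Without control 1 the main probe gave -5.10 and without control 2 -1.84. The main probe entered the comparison only through the controls, so its direction was fixed by the detection filter.

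The plexin genes showed no called difference. PLXND1, the SEMA3E receptor required for vessel patterning in the mouse, had 6.86 and 6.52 with the hairpins, against 5.98 and 5.73 in the controls, a difference of 0.83 ± 0.25 (SE, n = 2 per group; limma adjusted p = 0.155). Endothelial markers summed higher in the same arrays, as given above, and a link to PLXND1 was not tested. Of the 10 markers, VWF (the brightest), SOX17 and SOX18 stood higher without a call. TEK had a difference of -0.14, and 6 were undetected. PLXNA2 had 5.59 and 5.27, against 6.37 and 5.92, by its brighter probe, a difference of -0.72 ± 0.27 (limma adjusted p = 0.231). Its other detected probe had 6.33 and 5.97, against 5.42 and 4.74, and a difference of 1.07 ± 0.31 (limma adjusted p = 0.132 over all detected probes). The probes of PLXNA2 thus disagreed in direction, each without overlap between the groups, and no direction is given for this gene. PLXNA1 had 7.36 and 7.04, against 7.34 and 6.55, and PLXNA3 had 5.91 and 5.68, against 5.95 and 6.13. PLXNB1 had 7.47 and 6.84, against 7.86 and 7.16, and PLXNB2 had 8.60 and 8.18, against 8.44 and 7.37 (a difference of 0.49 ± 0.38, limma adjusted p = 0.552). The groups overlapped for PLXNA1, PLXNB1 and PLXNB2, and PLXNA3 was below both controls by a small margin.

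**Figure D4:**
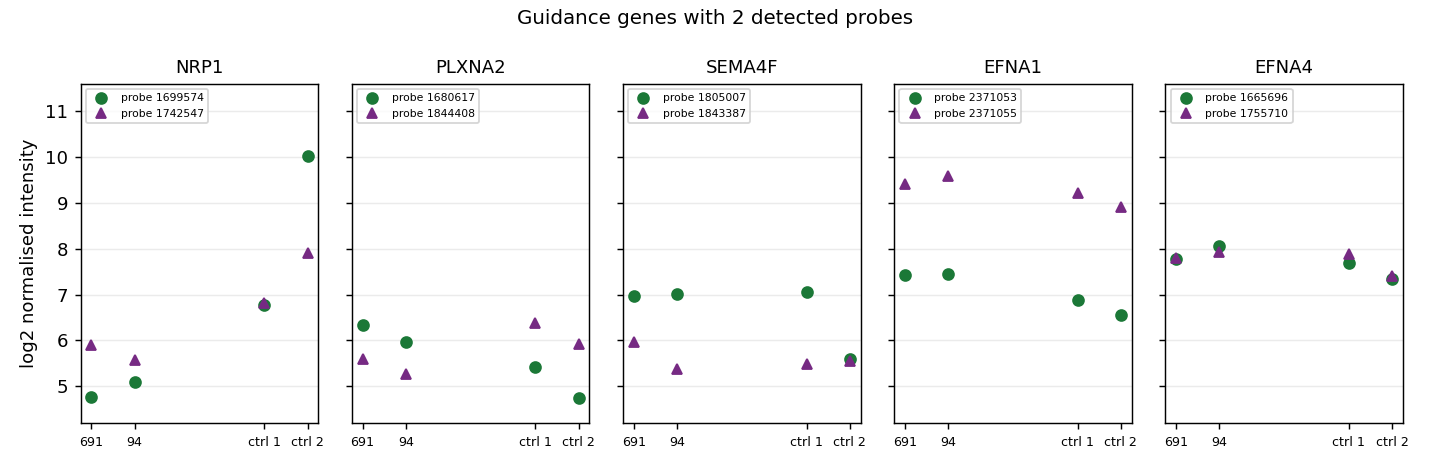
Log2 normalised intensity on each array (hairpins 691 and 94, then controls 1 and 2) for the 5 guidance genes with 2 detected probes, with 1 marker per probe. NRP1 is lower with the hairpins on both probes, and the PLXNA2 probes go opposite ways, with differences of 1.07 and -0.72.

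No difference passed among the SLIT and ROBO genes. SLIT2, a secreted repellent ligand, had 9.54 with shRNA 691 and 8.68 with shRNA 94, against 8.31 and 8.17 in the controls. Both hairpin arrays were higher, with a difference of 0.87 ± 0.32 (SE, n = 2 per group; limma adjusted p = 0.231), made up of 1.30 for shRNA 691 and 0.44 for shRNA 94. SLIT3 had 5.69 and 5.49, against 6.49 and 5.57, with overlapping groups and a difference of -0.44 ± 0.34 (limma adjusted p = 0.549). ROBO1, a receptor of SLIT2, had 5.36 and 4.58, against 5.11 and 5.86, and was detected on 1 array of each group. ROBO3 had 6.83 and 5.67, against 6.40 and 6.38, so shRNA 691 lay above and shRNA 94 below a tight pair of controls. The differences were -0.52 ± 0.37 for ROBO1 and -0.14 ± 0.38 for ROBO3, and neither passed (limma adjusted p = 0.509 and 0.882).

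No netrin ligand gene passed, and NTN3 and NTN4 were compared only because the TMEM88 shRNA arrays detected them. NTN4, a netrin of basement membranes, had 6.44 and 5.98 with the hairpins, against 5.26 and 5.41 in the controls, where it was undetected. Its difference was 0.88 ± 0.26, at least 1.66-fold higher as processed (limma adjusted p = 0.149), but 0.28 with no background correction. NTN3 had 6.28 and 6.09, against 5.37 and 5.39, and was also undetected in both controls. It was at least 1.63-fold higher as processed (limma adjusted p = 0.139), but its difference was 0.25 with no background correction. The other probe of NTN3 and that of NTN4 were undetected on every array. NTN1, the founding vertebrate netrin, had 6.04 and 6.21, against 6.12 and 5.02, with control 1 among the hairpin arrays. Its difference was 0.55 ± 0.37 (limma adjusted p = 0.489). That difference was 0.00658 without control 2 and 1.10 without control 1. The netrin receptor gene UNC5C had 5.28 and 5.46, against 5.29 and 5.82, a difference of -0.19 ± 0.27 (limma adjusted p = 0.764), and was detected on 1 array of each group.

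**Figure D5:**
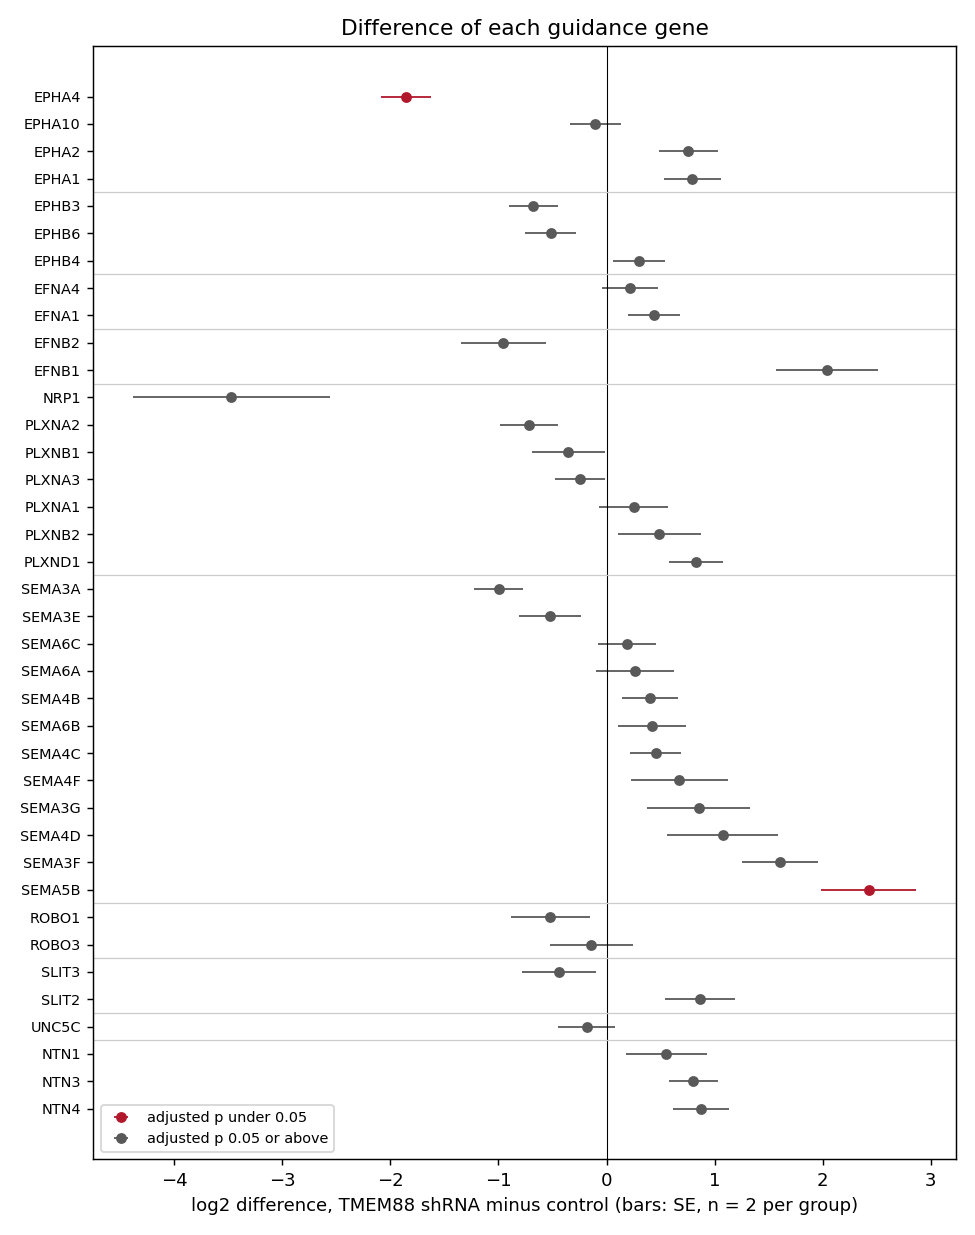
Log2 difference, TMEM88 shRNA minus control (horizontal axis), with its standard error (bars, n = 2 per group), for the 38 compared guidance genes in the same blocks. Red marks an adjusted p under 0.05, which EPHA4 (-1.86) and SEMA5B (2.43) reached, and NRP1 has the widest bar (-3.47 ± 0.91).

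By role, 17 of 21 compared ligand genes had a positive difference, with a median of 0.45, and 6 of 17 receptor genes did, with a median of -0.19. Over all genes 50.1% had a positive difference. Without NTN3, NTN4 and NRP1, whose direction the detection filter fixed, and without PLXNA2, whose probes disagreed, the counts were 15 of 19 ligand genes (median 0.44) and 6 of 15 receptor genes (median -0.14). The only called ligand gene rose (SEMA5B) and the only called receptor gene fell (EPHA4), and the difference between ligands and receptors was not tested. The controls were also apart over the ligand genes, with a median difference of control 1 minus control 2 of 0.47. That median was 0.03 over the receptor genes and 0.03 over all genes.

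Partner genes of these pathways, listed from general knowledge, showed 1 call among 43 compared, near the 1.98% of all genes. FLRT3, a membrane protein that binds UNC5 and ROBO receptors, had 8.49 and 9.09 with the hairpins, against 10.77 and 10.27 in the controls, and fell by 1.73 ± 0.31 (SE, n = 2 per group, limma adjusted p = 0.0455). The call was lost with no detection filter (limma adjusted p = 0.15) and against a single hairpin (limma adjusted p = 0.0853 with shRNA 691 and 0.290 with shRNA 94). It was the 1 call among 6 compared genes of the netrin and RGM axis, where 3 differences were positive and 3 negative. That list also held RGMA, a ligand of the netrin receptor neogenin, with 10.44 and 10.02, against 9.15 and 9.10 (limma adjusted p = 0.0882), and NEO1, which encodes neogenin, with 9.63 and 9.77, against 10.43 and 10.41. The netrin receptor gene DCC was undetected on every array. None of 10 SLIT-ROBO effectors passed, with SRGAP2, a GTPase-activating protein with near-identical copies whose RNA its probe may share, at 6.84 and 6.85, against 7.78 and 7.84 (limma adjusted p = 0.0917). None of 16 semaphorin effectors passed, with the small GTPase gene RRAS, a target of plexin GTPase-activating domains, at 10.70 and 10.78, against 9.10 and 9.85 (limma adjusted p = 0.0997). None of 11 ephrin effectors passed, with NGEF, the ephexin exchange factor that acts below EPHA4, at 7.14 and 6.54, against 5.96 and 5.41 (limma adjusted p = 0.127). The medians of these 4 lists were -0.28, -0.27, 0.06 and -0.05, against 0.00 over all genes.

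The last comparison asked whether each hairpin alone differed from the controls, which both comparisons share. None of the 38 genes was called with shRNA 691 (background 0.867%) or with shRNA 94 (background 0.482%) in limma, where 13 and 6 had an unadjusted p under 0.05, against 8.95% and 8.61% of all genes. Such a fit has 1 residual degree of freedom and assumes that a lone array varies like the controls. EPHA4 stood at -1.93 ± 0.39 with shRNA 691 and -1.78 ± 0.39 with shRNA 94, and SEMA5B at 2.69 ± 0.55 and 2.16 ± 0.55 (SE). EFNB1 stood at 2.08 and 2.00 and SEMA3F at 1.75 and 1.46, while TMEM88 itself stood at -3.38 and -0.92. Between the hairpins no guidance gene differed (background 0.00%), and 1 had an unadjusted p under 0.05, against 0.944% of all genes.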

How the data were processed

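Labelled cRNA of 4 RUES2 samples was hybridised to 1-colour Illumina bead arrays, as the labels' protocols give it. The deposited scanner table holds linear, unnormalized intensity values of 47322 probes per the file headers, and beside each a deposited detection p-value. The deposited matrix holds log2 values that the authors normalized; they lay within 0.158 of quantile-normalized log2 signals, and their exact method is not given in the sources used. Per the submitters' processing notes, lumi and limma 3.12.3 were among the tools.

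From the intensities, neqc (limma 3.58.1, R 4.3.3) gave background-corrected, quantile-normalized log2 values (offset 16, negative controls inferred from the detection p-values). A single symbol was given for 30113 probes, several for 8 and none for 17201; 30074 matched the gene table of GRCh38.p14, used for current names. Each gene was taken by the brightest of its probes that reached a detection p under 0.01 on at least 2 arrays. The test was limma's lmFit with eBayes, 2-sided, with Benjamini-Hochberg adjustment over all 10377 genes (2 residual and 4.84 prior degrees of freedom), and single hairpins in a fit with 3 groups. UNC50 and UNC5CL share letters with the netrin receptors and were left out. Every compared member was named with its values on each array; full statistics went to called members and to the largest difference and the brightest probe of each family, and to others added after their values were seen. The members and lists were chosen with earlier results of these data known. The labels name no batch, and replicate codes differ between all arrays, so nothing was paired. The fit was tested on simulated data. Promoter windows came from RefSeq. Figures were drawn with matplotlib 3.10.9. The number of arrays limits the precision.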

Additional observations from a re-analysis of the deposited data

Results flagged for a closer look

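Some members outside the comparison were detected on a TMEM88 shRNA array and on neither control. They were picked by this pattern, so a higher signal on that array followed from the choice. Of the 28 members that were not compared, 10 were detected on 1 TMEM88 shRNA array and on neither control, which is 35.7%, against 6.79% of all 9669 named genes not compared, and 2 were detected on a control only (7.14%, against 4.42%). With shRNA 691 the signals were 176.9 for SEMA3B, 171.7 for UNC5A, 158.6 for SEMA4A and 153.6 for SEMA6D. The controls of SEMA3B had 133.3 and 121.4 and those of UNC5A 132.6 and 118.8. With shRNA 94 the signals were 180.2 for NRP2, 158.8 for SEMA4G, 153.3 for EPHA8, 152.4 and 148 for 2 probes of NTN5, 151.1 for UNC5B and 149.5 for UNC5D. The controls of NRP2 had 148.1 and 148.9. On the other hairpin array SEMA3B had 122, EPHA8 142.2, SEMA4G 144, SEMA6D 135.4, UNC5D 132 and a probe of NTN5 130.2. Each of these lay below a control. By raw signal SEMA4A, UNC5A, UNC5B, NRP2 and the other NTN5 probe lay above both controls there. On the normalised log2 scale only SEMA4A and UNC5A did. NRP2 had 5.30, against 5.40 and 5.41 in the controls, and UNC5B had 5.26, against 5.37 and 5.27. That NTN5 probe had 5.25, below control 2 at 5.38. Each gene was detected with a single hairpin, so none has a replicate, and more probes were detected on the TMEM88 shRNA arrays in general.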

How the results depend on the processing

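The count of called guidance genes, 2 of 38 as reported, was 1 with median scaling, 1 with robust variance, 1 when detected on all 4 arrays (EPHA4 each time), 0 with no detection filter (limma, 66 genes) and 5 at an adjusted p under 0.1 (with EFNB1, SEMA3A and SEMA3F). Leaving out single arrays gave 0 to 12, with 0 without either hairpin array. Without control 1 it was 12 and without control 2 it was 6. Such fits leave 1 array in a group and take their residual spread from the other pair. For shRNA 691 alone the count of 0 became 2 with an offset of 50, with the mean of detected probes, with a variance trend and at an adjusted p under 0.1, and for shRNA 94 it became 2 with the mean of detected probes (EPHA4 and SEMA5B each time). The count of partner genes, 1 of 43, was 2 with the deposited matrix, 3 with a variance trend, 4 at an adjusted p under 0.1, 0 with no detection filter and 0 to 9 without single arrays. Leaving out the background correction kept each of these counts, while the differences shrank by over 1.5 times for 31 of the 38 genes (30 in the deposited matrix), with a median size of 0.28 (0.31 in the deposited matrix), against 0.54 as reported. EFNB1 was then 1.02 (1.11), SEMA3F 0.87 (0.94), SEMA3A -0.34 (-0.39) and NRP1 -1.78 (-1.92). PLXNA2 turned to 0.18 with the mean of its probes and to 1.07 on its other probe, an alternative chosen after seeing the data. Without single arrays the sign turned for 10 uncalled genes: the differences ranged from -0.25 to 0.78 for SEMA6A, -0.90 to 0.0255 for SLIT3, -0.0170 to 0.45 for EFNA4, -0.14 to 0.65 for PLXNA1, -0.0459 to 1.03 for PLXNB2, -0.0540 to 1.40 for SEMA4F, -0.00761 to 0.38 for SEMA6C, -0.45 to 0.0767 for UNC5C, -0.26 to 0.0536 for EPHA10 and -0.72 to 0.44 for ROBO3. The cause of these changes was not tested. No paired analysis was possible because the labels give no replicate number shared between the groups. Members near background, such as NTN3, NTN4, ROBO1 and UNC5C, have little signal to compare.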

Other observations

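Several guidance genes sit side by side in the genome (order of genes in GRCh38.p14). SEMA3E, SEMA3A and SEMA3D follow each other on chromosome 7 with 0 protein-coding genes between them, and SEMA3C lies 3 protein-coding genes from SEMA3E. Of these neighbours SEMA3A and SEMA3E had lower values with the TMEM88 hairpins (log2 differences of -0.997 and -0.52, neither called), SEMA3C was detected on control 2 alone (signal 190.6) and SEMA3D on no array. EFNA4, EFNA3 and EFNA1 are neighbours on chromosome 1, of which EFNA3 was undetected while EFNA1 and EFNA4 were detected on all 4 arrays. SEMA3F and SEMA3B lie 3 protein-coding genes apart on chromosome 3, where SEMA3F stood at 1.61 and SEMA3B was detected with shRNA 691 alone. Chromosome 3 holds 13 of the 66 members.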
